A study of Mus musculus with 24 samples.

Results

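Cholesterol handling was described through 26 genes of the mouse that make cholesterol, control its synthesis or move it between compartments and out of the cell. The members were a list of gene symbols, matched through the GENCODE mouse annotation to the Ensembl identifiers of the deposited count table, and all 26 were found among its 53700 genes. They comprised 7 genes of the isoprenoid steps (Acat2, Hmgcs1, Mvk, Pmvk, Mvd, Idi1 and Fdps), 11 genes of the squalene and sterol steps (Fdft1, Sqle, Lss, Cyp51, Tm7sf2, Msmo1, Nsdhl, Hsd17b7, Ebp, Sc5d and Dhcr7), 4 genes of SREBP control (Srebf2, Scap, Insig1 and Insig2) and 4 genes of transport and the liver X receptor (Stard4, Npc1, Abca1 and Nr1h3). The rule itself uses no measured value, but the list was drawn up with earlier results of these data known. All 26 had enough counts to be tested, as had 24965 genes of the whole table.

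RNA was sequenced from the retinal pigment epithelium (RPE) of C57BL/6 mice of 12 to 16 weeks, kept in 12 h of light and 12 h of darkness and killed at zeitgeber time (ZT, hours after lights on) 1, 7, 13 or 19. Each genotype, RPE Bmal1 WT or RPE Bmal1 KO, was represented by 3 mice per time point, which gives 24 libraries in 8 groups. According to the study's methods, every mouse carried the floxed Bmal1 fl/fl alleles and the inducible Rpe-CRE transgene (Vmd2-rtTA/TetO-cre), in which the Vmd2 promoter directs Cre to the RPE. The KO mice received doxycycline food from postnatal day 60 to 74 and the WT mice the regular diet, whereas the sample records list doxycycline food for both genotypes. Both sexes were used, and sex was not available as a term. The 2 RPE isolates of a mouse were pooled, so each library was 1 mouse and the p-values measure the spread between mice. Recombination in this line does not reach every RPE cell, and the KO tissue still held cells with BMAL1.

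Cholesterol is built from acetyl-CoA through mevalonate and isoprenoid units, which are joined to squalene, closed to lanosterol and trimmed to cholesterol. The transcription factor SREBP2 (Srebf2) switches most of these enzymes on together: its escort SCAP carries it from the endoplasmic reticulum to the Golgi when sterols are low, and the INSIG proteins hold the pair back when sterols are plentiful. In the opposite branch, oxysterols activate the liver X receptors, which induce the efflux pump ABCA1. The RPE takes up the tips of photoreceptor outer segments every day and has to pass on their lipid, and it lies between the retina and the choroidal circulation. BMAL1 binds E-box letters with its partner CLOCK, and in mouse liver the clock repressor REV-ERBα is known to act on Insig2 and thereby on SREBP.

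Libraries held 2069527 to 10572612 counts (median 7000040.5), and mitochondrially encoded genes took 3.86% to 41.7% of them. Arntl, the gene of BMAL1, had 9.80 to 77.9 CPM (counts scaled to library size by TMM) in the WT libraries and 18.7 to 88.6 CPM in the KO libraries, with an averaged log2 difference of 0.17 (SE 0.23, adjusted p = 0.959, edgeR). At ZT1 Arntl was higher in KO without overlap (81.1 to 88.6 against 46.2 to 77.9 CPM), as were 9.84% of all genes tested. Its WT means at ZT1, ZT7, ZT13 and ZT19 were 57.6, 22.6, 31.7 and 56.8 CPM. The KO means were 85.6, 27.7, 29.7 and 54.8 CPM. Whole-gene counts do not show the loss of the floxed exon, so they do not check the labels. All 10 RPE markers were detected, and their sum ran from 779 to 3176 CPM. Rgr alone had a median of 1093 CPM against 2063 CPM for the sum, while Best1 was low at 0.63 to 7.12 CPM. The libraries also carried muscle markers at 8488 to 58836 CPM, corneal or epidermal keratins and partners at 5162 to 12902 CPM, Schwann cell and myelin markers at 1695 to 20816 CPM, and rod markers at 251 to 5454 CPM. Lens markers were very uneven, at 10.1 to 8014 CPM, and adipocyte markers ran from 5.65 to 265 CPM. The muscle sum was mostly Ttn, with a median of 15977 CPM against 17385 CPM for the sum. Most members are used by every cell type, and in such bulk tissue fewer cells of a type and less RNA per cell cannot be told apart. Replicate 1 of WT at ZT7 stood apart: it had the fewest counts, the largest mitochondrial share, the lowest RPE marker sum and the highest myelin marker sum of the 24. Mbp alone had 19122 CPM of that myelin sum. This library is also among 5 with over 500 CPM on olfactory and vomeronasal receptor genes, a limit chosen after the values were seen. The others are replicate 1 of WT at ZT19 and of KO at ZT1, ZT7 and ZT13. Several of the results below are given with and without these 5. Counts of members without overlap use all libraries.

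Promoter sequence was available for 21 of the 26 members in the RefSeq table (GRCm38.p6, 250 bases before to 50 after the start of transcription), the others being Stard4, Fdft1, Sqle, Fdps and Npc1. The CCAAT letters of the NF-Y box, a partner site of SREBP, were found on either strand in 17 of the 21 (81%), against 41.1% of the 27025 genes in the table. The E-box CACGTG was found in 6 (28.6%, against 8.09% of all genes), namely Hsd17b7, Sc5d, Dhcr7, Scap, Insig1 and Abca1. The sterol regulatory element SRE-1 (TCAC, any base, CCAC) was found in Hmgcs1 alone (1.44% of all genes). The REV-ERB or ROR site (AGGTCA after TA or TG) was found in Dhcr7 and Insig1 (3.25% of all genes), and in Insig1 its letters overlap those of the E-box. The liver X receptor element DR4 (AGGTCA repeated after 4 bases) was found in none of the 21 and in 0.0148% of all genes. Matches of letters describe these windows and do not show binding.

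The stretches that carry the matches are printed for 9 members that the results turn on, from 5′ to 3′ in the direction of the gene, all upstream of its start, with the matched letters in capitals. The first shows the SRE-1 (TCACCCCAC) among NF-Y boxes (ATTGG or CCAAT), as does Mvk with NF-Y boxes only.
Hmgcs1, chr13:119690104-119690320, plus strand: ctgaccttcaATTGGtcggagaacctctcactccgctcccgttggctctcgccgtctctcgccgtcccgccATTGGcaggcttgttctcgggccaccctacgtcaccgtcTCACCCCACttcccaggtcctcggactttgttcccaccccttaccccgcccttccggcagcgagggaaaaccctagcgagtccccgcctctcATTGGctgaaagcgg
Mvk, chr5:114444086-114444268, plus strand: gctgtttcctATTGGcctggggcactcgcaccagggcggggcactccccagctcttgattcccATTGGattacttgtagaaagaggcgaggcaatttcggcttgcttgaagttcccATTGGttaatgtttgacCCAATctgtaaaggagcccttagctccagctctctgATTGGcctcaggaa

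Members with an E-box are shown next, because BMAL1 is the protein removed in the KO mice. In Insig1 the capitals cover the REV-ERB or ROR site and the E-box, which share letters.
Sc5d, chr9:42264310-42264408, minus strand: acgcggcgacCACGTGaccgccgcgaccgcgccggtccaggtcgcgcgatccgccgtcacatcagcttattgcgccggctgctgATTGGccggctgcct
Hsd17b7, chr1:169969206-169969380, minus strand: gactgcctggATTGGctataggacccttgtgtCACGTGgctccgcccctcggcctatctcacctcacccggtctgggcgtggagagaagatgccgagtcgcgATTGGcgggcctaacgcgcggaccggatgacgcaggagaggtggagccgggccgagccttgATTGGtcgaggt
Insig1, chr5:28071285-28071336, plus strand: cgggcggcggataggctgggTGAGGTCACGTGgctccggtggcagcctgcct
Abca1, chr4:53160017-53160062, minus strand: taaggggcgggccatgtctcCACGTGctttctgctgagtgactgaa

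The last stretches belong to the regulators Srebf2 and Insig2 and to the sterol enzyme gene Lss, and hold NF-Y boxes.
Srebf2, chr15:82147114-82147158, plus strand: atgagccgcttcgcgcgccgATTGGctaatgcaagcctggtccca
Insig2, chr1:121332604-121332735, minus strand: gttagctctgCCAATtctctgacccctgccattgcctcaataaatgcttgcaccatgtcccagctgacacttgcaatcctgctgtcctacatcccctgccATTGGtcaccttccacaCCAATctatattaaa
Lss, chr10:76531523-76531567, plus strand: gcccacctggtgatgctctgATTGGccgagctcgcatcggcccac

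To compare genes, levels were set per kilobase of exon (mean CPM per kb over the 24 libraries). The length joins all annotated exons of a gene, such as 10787 bases for Lss. It can exceed the length of any single transcript, which lowers the value, so the order also depends on the annotation. Srebf2 was the highest of the 26 at 34.2 CPM per kb, followed by Insig1, its feedback inhibitor, at 33.7, and by Hmgcs1, the cytosolic HMG-CoA synthase, at 30.3. Sc5d, the sterol desaturase, stood at 29.1 and Sqle, squalene epoxidase, at 23.97. The methylsterol oxidase gene Msmo1 (15.5), the lanosterol demethylase gene Cyp51 (13.3) and the sterol dehydrogenase gene Nsdhl (12.1) came next, with the efflux pump gene Abca1 at 11.6, the final reductase gene Dhcr7 at 10.9 and Insig2 at 10.6. The low end held Fdps, farnesyl diphosphate synthase (3.04), Pmvk, phosphomevalonate kinase (2.70), Nr1h3, liver X receptor alpha (1.96), Tm7sf2, a sterol reductase (1.66), and Idi1, isopentenyl diphosphate isomerase (1.30). The remaining 10 lay between 5.86 for Ebp, the sterol isomerase, and 8.05 for Acat2, the cytosolic thiolase. Neighbours in this order overlapped in their libraries. Srebf2, for example, ran from 15.9 to 46.8 CPM per kb and Insig1 from 12.7 to 51.7 CPM per kb, while no library had Idi1 above 1.86 CPM per kb.

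**Figure D1:**
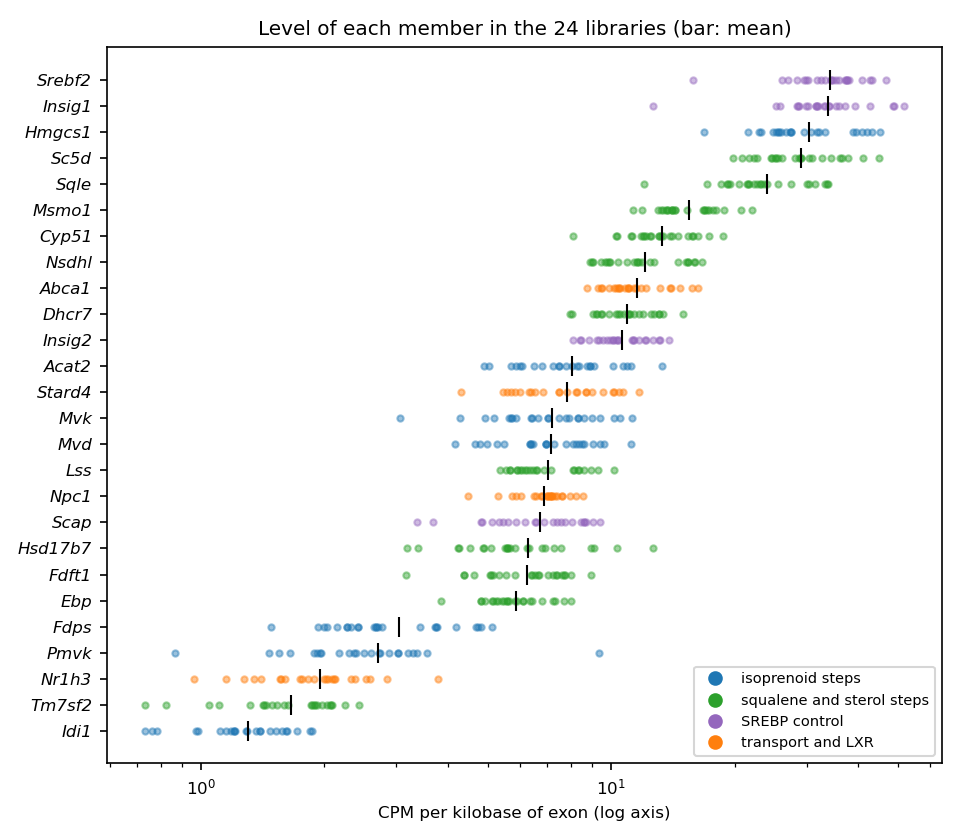
Level of each of the 26 genes in CPM per kilobase of exon on a log axis, ordered by the mean over 24 libraries, with a point for each library, a bar for the mean and colour for the role. The order runs from Srebf2 at 34.2 to Idi1 at 1.30, with isoprenoid genes (Fdps, Pmvk and Idi1) among the lowest 5.

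Summed within their roles, the squalene and sterol genes made up 465 to 919 CPM (median 645) over the libraries, the SREBP control genes 226 to 561 CPM (median 444), the transport genes 176 to 319 CPM (median 240) and the isoprenoid genes 147 to 298 CPM (median 197). The coefficient of variation within groups of 3 had a median of 20.998% over the 26 members, against 29.5% over all genes tested. It was smallest for Npc1 (6.97%) and largest for Pmvk (30.7%). The counts behind the least abundant members were small, with 3 reads for Idi1 and 7 for Pmvk in their lowest libraries. The exons of 7 members overlap exons of a gene on the opposite strand (Hmgcs1, Idi1, Fdft1, Lss, Cyp51, Scap and Npc1), and 3 overlap a gene on the same strand (Fdps, Tm7sf2 and Nr1h3). Since the use of strand in counting is not stated, the levels of these genes are uncertain, as is that of Acat2, which has a close paralog in Acat3.

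The study asked which transcripts of the RPE differ over the day with and without BMAL1. None of the 26 members passed an adjusted p of 0.05 for time. In the 12 WT libraries 0 members were called by edgeR, against 0% of all genes, and 0 had an unadjusted p under 0.05, against 2.47% of all genes. In the 12 KO libraries 0 were called (0.00801% of all genes) and 0 had an unadjusted p under 0.05 (2.06% of all genes). With both genotypes in the fit, 0 were called (0.0361% of all genes) and 2, or 7.69%, had an unadjusted p under 0.05 (3.11% of all genes). These were Lss and Npc1. DESeq2 and limma-trend also called 0 members in each time test. Of all genes they called 15 and 0 in WT, 50 and 2 in KO, and 64 and 14 with both genotypes. With both genotypes they had 5 and 2 members at an unadjusted p under 0.05. The edgeR share of all genes is not the background for these 2 counts.

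Npc1 encodes the lysosomal membrane protein that passes cholesterol from digested lipid on to the rest of the cell. In CPM, its WT libraries had 81.0, 73.5 and 96.4 at ZT1, 50.8, 68.3 and 66.5 at ZT7, 85.8, 92.7 and 79.4 at ZT13, and 76.2, 81.4 and 74.1 at ZT19. In CPM, the KO libraries had 80.6, 82.7 and 80.4 at ZT1, 60.1, 64.9 and 78.9 at ZT7, 83.7, 89.7 and 79.2 at ZT13, and 86.0, 80.3 and 76.9 at ZT19. In both genotypes ZT7 was the lowest time point and ZT13 the highest, and the libraries of these time points did not overlap. Over both genotypes the means were 82.4 ± 7.55, 64.9 ± 9.30, 85.1 ± 5.44 and 79.1 ± 4.31 CPM at ZT1, ZT7, ZT13 and ZT19 (SD, n = 6). The unadjusted p for time was 0.0085 and the adjusted p was 1.00 in edgeR, and over the 33 settings tried the adjusted p ran from 0.0593, with DESeq2, to 1. The unadjusted p was under 0.05 in 31 of the 33 settings. It was 0.0899 in edgeR when the 5 libraries rich in receptor genes were left out, and also not under 0.05 with library size scaling. The difference between the genotypes averaged over time was 0.03 on the log2 scale, with a 95% interval from -0.14 to 0.20.

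Lss encodes lanosterol synthase, which closes squalene epoxide into the sterol rings, and lies on chromosome 10 (76531588 to 76557138, plus strand, mm10). In CPM, WT libraries had 63.7, 96.2 and 87.3 at ZT1, 57.9, 87.8 and 92.8 at ZT7, 65.4, 74.1 and 89.7 at ZT13, and 61.2, 64.6 and 59.7 at ZT19. In CPM, KO libraries had 70.7, 90.3 and 67.2 at ZT1, 109.7, 100.04 and 71.0 at ZT7, 69.4, 66.4 and 77.1 at ZT13, and 68.6, 61.3 and 63.5 at ZT19. The lowest mean was at ZT19 in both genotypes, and the highest was at ZT1 in WT and at ZT7 in KO. In KO the ZT7 and ZT19 libraries did not overlap, while in WT the lowest ZT1 library lay within the ZT19 range. Over both genotypes the means were 79.2 ± 13.7, 86.5 ± 19.1, 73.7 ± 9.05 and 63.1 ± 3.19 CPM (SD, n = 6) in the order of the time points. The unadjusted p for time was 0.0277 and the adjusted p was 1.00 in edgeR, with adjusted values from 0.455 to 1 over the 33 settings. The unadjusted p for Lss was under 0.05 in 23 of the 33 settings. Scaling by library size alone gave an unadjusted p of 0.396.

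**Figure D2:**
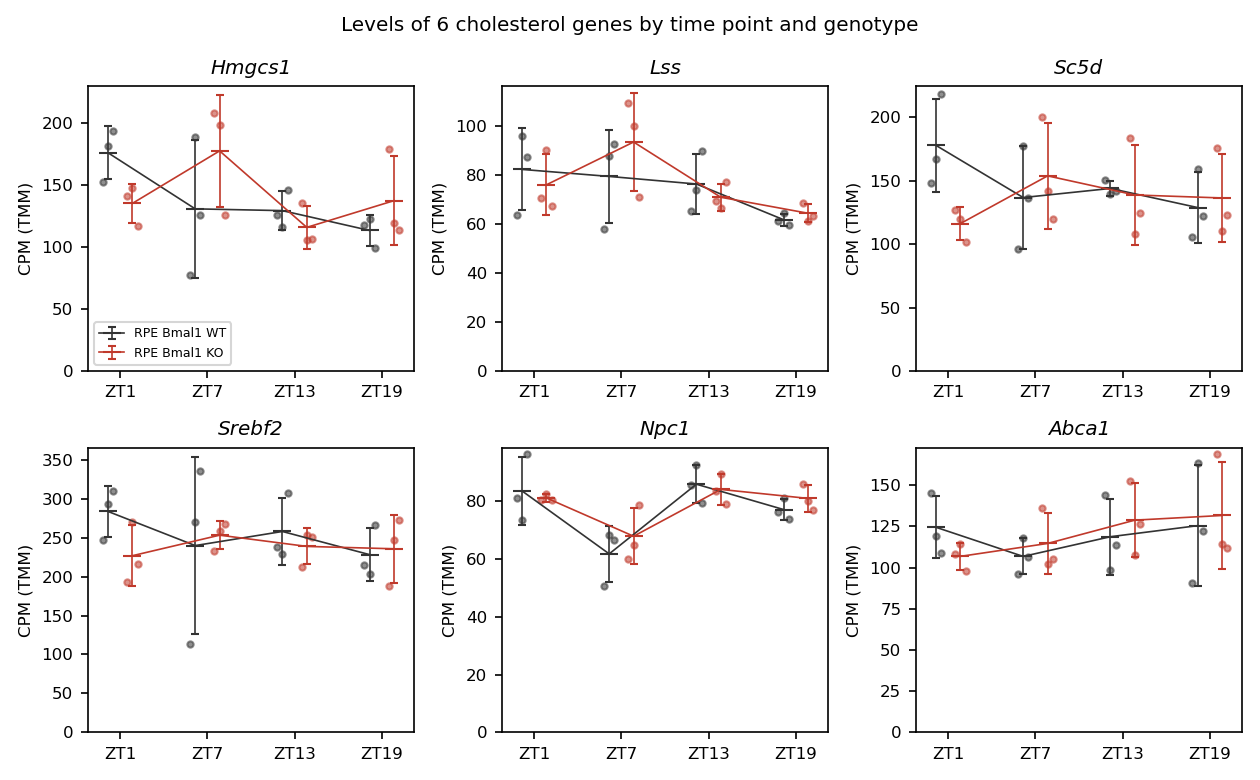
Levels in CPM at ZT1, ZT7, ZT13 and ZT19 for Hmgcs1, Lss, Sc5d, Srebf2, Npc1 and Abca1, with a point per library and bars for the mean ± SD of 3 libraries in each genotype. Npc1 has its lowest means at ZT7 in both genotypes (61.8 and 68.0 CPM), while a single WT library at ZT7 lies far below its group for Hmgcs1 (77.5 CPM) and Srebf2 (114 CPM).

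Hmgcs1, the most abundant isoprenoid gene, makes the substrate of HMG-CoA reductase and lies on chromosome 13 (119690379 to 119708260, plus strand). In CPM, WT libraries had 152, 181 and 194 at ZT1, 77.5, 188 and 126 at ZT7, 126, 116 and 146 at ZT13, and 118, 123 and 99.2 at ZT19. In CPM, KO libraries had 141, 147 and 117 at ZT1, 208, 198 and 126 at ZT7, 135, 105 and 106 at ZT13, and 179, 119 and 114 at ZT19. In WT every ZT1 library was above every ZT19 library, and in KO the highest mean, at ZT7, came from libraries that overlapped those of ZT13. Time gave an unadjusted p of 0.154 in WT and 0.157 in KO, and the genotype by time test gave 0.134 (edgeR). Its group means were 176 ± 21.2, 131 ± 55.5, 129 ± 15.4 and 113 ± 12.3 CPM in WT and 135 ± 15.9, 177 ± 44.9, 116 ± 17.2 and 137 ± 36.0 CPM in KO (SD, n = 3).

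Srebf2, the master regulator of the pathway, had the highest level of all 26 and lies on chromosome 15 (82147181 to 82205379, plus strand). In CPM, WT libraries had 247, 293 and 310.2 at ZT1, 114, 269 and 336 at ZT7, 238, 228 and 307 at ZT13, and 214, 203 and 267 at ZT19. In CPM, KO libraries had 194, 269.9 and 217 at ZT1, 233, 258 and 268 at ZT7, 212, 254 and 250.2 at ZT13, and 188, 247 and 272 at ZT19. All time points overlapped in both genotypes. The ratio of the highest to the lowest time mean was 1.24 in WT and 1.12 in KO, with unadjusted p = 0.778 and 0.904 for time in edgeR.

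Abca1, which exports cholesterol to apolipoproteins, was the most abundant transport gene and lies on chromosome 4 (53030787 to 53159895, minus strand). In CPM, WT libraries had 145, 119 and 109 at ZT1, 96.2, 118 and 106 at ZT7, 144, 98.5 and 114 at ZT13, and 90.5, 163 and 123 at ZT19. In CPM, KO libraries had 108, 115 and 97.9 at ZT1, 136, 103 and 105 at ZT7, 152, 108 and 126 at ZT13, and 169, 114 and 112 at ZT19. The widest spread was inside the ZT19 groups, and time gave an unadjusted p of 0.799 in WT and 0.520 in KO (edgeR).

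Over all 26 members the ratio of the highest to the lowest time mean had a median of 1.38 in WT (range 1.13 to 1.82) and 1.24 in KO (1.12 to 1.77). The corresponding medians of all genes tested were 1.47 and 1.40. The range within members ended at Pmvk in WT, through a single library, and at Hsd17b7, a sterol ketoreductase, in KO. Hsd17b7 was also the member with the smallest p for time in WT (0.0671), where its mean was 42.7 CPM when highest (ZT1) against 23.96 CPM when lowest (ZT19). The KO extremes were 43.9 CPM (ZT7) against 24.9 CPM (ZT19). Its p over both genotypes was 0.0574. In 6 WT and 5 KO members the libraries of the highest and lowest time points did not overlap (23.1% and 19.2%), against 20.1% and 20.2% of all genes tested.

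In WT, 16 members had their highest mean at ZT1, 5 at ZT7, 3 at ZT13 and 2 at ZT19, while 20.9% of all genes tested were highest at ZT1. Their lowest mean was at ZT19 in 16 and at ZT7 in 5, which became 5 and 14 with library size scaling, 10 and 12 without replicate 2 of WT at ZT7, and 12 and 10 without replicate 3 of that group. Without replicate 3 of WT at ZT13, 11 members were lowest at ZT19 and 11 at ZT13. In KO, 13 were highest at ZT7 and 6 at ZT1, and 28.4% of all genes tested were highest at ZT7. The highest time point was shared by both genotypes in 5 members and the lowest in 6. The WT count of members highest at ZT1 depended on replicate 1 at ZT7, which was the lowest of its 3 libraries for 23 of the 26 members and the lowest of all 24 for 14. Without it, 10 members were highest at ZT1 and 11 at ZT7, and leaving out all 5 libraries rich in receptor genes gave 10 and 10. In KO, 13 members were highest at ZT7 after that omission. Members share libraries, so these counts are not independent, and no member passed the test of the genotype by time difference (smallest unadjusted p = 0.117, Insig1). For that test 0 members were called by edgeR (0% of all genes) and 0 had an unadjusted p under 0.05 (2.06% of all genes).

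The genotypes were then compared directly. By the study's methods they share the same alleles and differ in the doxycycline food. Loss of BMAL1 and doxycycline itself therefore cannot be told apart in any difference between KO and WT. Averaged over the time points, 0 of 26 members were called by edgeR (0% of all genes) and 0 had an unadjusted p under 0.05 (6.34% of all genes). DESeq2 and limma-trend also gave 0 for both. In log2 units, KO minus WT, 12 members were above 0 and 14 below (58.5% of all genes), with a median of -0.01, against a median of -0.04 over all genes tested. With single libraries left out, 6 to 20 were above 0. With the 5 receptor-rich libraries left out, 9 were above 0 and 17 below. In that edgeR fit 2 members, Sc5d and Insig2, had an unadjusted p under 0.05, and 0 were called (0 of all genes). The differences ran from -0.24 for Pmvk to 0.13 for Ebp. The 95% interval of the difference lay within 1.5-fold for 25 of the 26 members, the exception being Pmvk (-0.76 to 0.29), and within 2-fold for all 26. The smallest unadjusted p belonged to Insig2, which retains SCAP in the endoplasmic reticulum, with a log2 difference of -0.14 (SE 0.10), an unadjusted p of 0.164 and an adjusted p of 0.857 in edgeR. Srebf2 had -0.08 (SE 0.13), Hmgcs1 0.04 (SE 0.13), Lss 0.01 (SE 0.11), Sc5d -0.11 (SE 0.13) and Abca1 0.01 (SE 0.11). These directions depend on the scaling: library size alone moves the median of all genes by 0.22 on the log2 scale and puts all 26 members above 0, with a median of 0.19, and 0 of them were called there too.

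**Figure D3:**
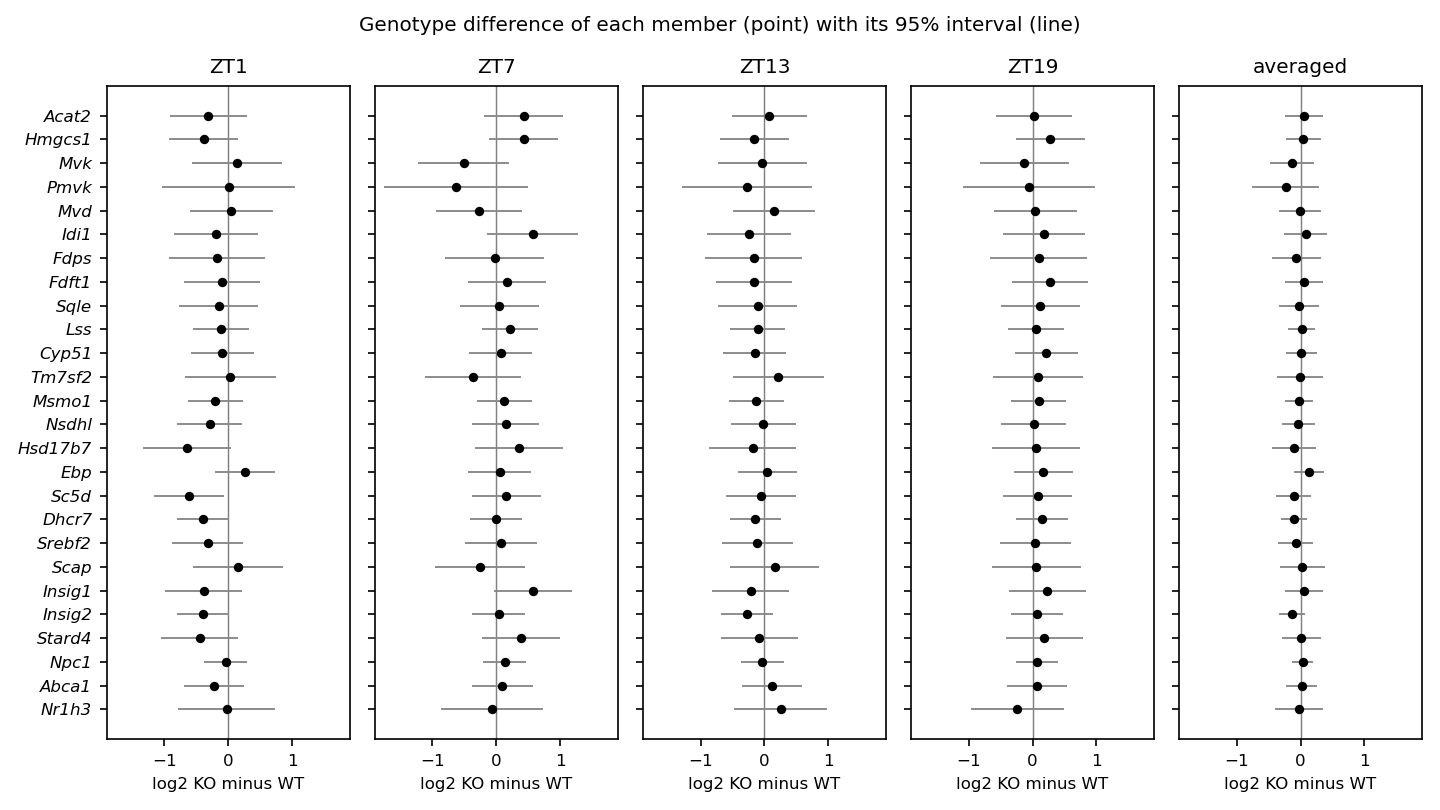
Log2 difference, KO minus WT, with its 95% interval from edgeR for each of the 26 genes, averaged over time and at each of the 4 time points. The averaged intervals all cross 0 and stay within 2-fold, and at single time points the only interval clear of 0 is that of Sc5d at ZT1 (-1.16 to -0.07).

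At ZT1, an hour after lights on, 0 members were called by edgeR (0% of all genes) and 1, or 3.85%, had an unadjusted p under 0.05, against 9.99% of all genes. DESeq2 had 2 members at that level, Sc5d and Insig2, and also called 0 members, against 2 of all genes. The log2 difference was below 0 for 20 of 26 members (51.3% of all genes), with a median of -0.18 against -0.02 over all genes tested. By role, 9 of the 11 squalene and sterol genes, all 4 transport genes, 3 of the 4 SREBP control genes and 4 of the 7 isoprenoid genes were below 0. With each library left out in turn, 16 to 23 members were below 0, and with the 5 receptor-rich libraries left out 19 were. With library size scaling 10 were below 0 and 16 above. The ZT1 groups also differed in tissue content: rod markers summed to 2219 to 5454 CPM in KO and 416 to 952 CPM in WT, cone markers to 178 to 315 and 28.3 to 52.4 CPM, muscle markers to 8717 to 10485 and 12912 to 58836 CPM, and Schwann cell and myelin markers to 1695 to 2479 and 2486 to 4406 CPM, with no overlap. RPE markers summed to 1717 to 2071 CPM in KO and 2261 to 2628 CPM in WT. Lens markers overlapped but were uneven, at 43.5 to 8014 CPM in KO and 58.8 to 350 CPM in WT. The part of these in the members' levels was not tested.

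Sc5d, which introduces a double bond late in the sterol steps, was the member with the unadjusted p under 0.05, and lies on chromosome 9 (42251595 to 42264256, minus strand). At ZT1 it had 148, 167 and 219 CPM in WT and 127, 120.0 and 101 CPM in KO, without overlap. The log2 difference was -0.61 (SE 0.26, 95% interval -1.16 to -0.07), with an unadjusted p of 0.0288 and an adjusted p of 0.435 in edgeR. Over the 33 settings tried the adjusted p ran from 0.267 to 0.997. The unadjusted p for Sc5d was under 0.05 in 26 of them. It was not when replicate 2 or 3 of either genotype at ZT1 was left out. At the other time points the genotypes overlapped. In CPM, WT had 96.2, 178 and 136 at ZT7, 150.4, 140 and 142 at ZT13, and 105, 159 and 122 at ZT19. In CPM, KO had 200.4, 142 and 119 at ZT7, 183, 108 and 124 at ZT13, and 176, 110.1 and 123 at ZT19. The genotype by time test in edgeR gave an unadjusted p of 0.182 for Sc5d, so the value at ZT1 was not shown to differ from those at other times.

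The ZT1 libraries of the genotypes did not overlap in 4 other members. Hmgcs1 had 152 to 194 CPM in WT and 117 to 147 CPM in KO, Insig2 39.5 to 45.3 and 29.1 to 35.1 CPM, and Stard4, a soluble sterol carrier, 45.9 to 56.9 and 31.8 to 43.5 CPM. Ebp was the reverse, with 11.2 to 12.7 CPM in WT and 12.9 to 15.7 CPM in KO. In all, KO was lower without overlap in 4 members and higher in 1, against 10.9% and 9.84% of all genes tested. Their log2 differences were -0.38 (SE 0.26) for Hmgcs1, -0.40 (SE 0.20) for Insig2, -0.45 (SE 0.29) for Stard4 and 0.26 (SE 0.23) for Ebp, with unadjusted p from 0.0536 to 0.265.

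At ZT7, 0 members were called by edgeR (0% of all genes) and 0 had an unadjusted p under 0.05 (4.32% of all genes). DESeq2 and limma-trend each had 1, Insig1, and also called 0 members, against 4 and 0 of all genes. KO was above WT in 18 of 26 (45.2% of all genes), with a median of 0.08 against -0.05 over all genes tested. Without replicate 1 of WT, 10 were above and 16 below, and with the 5 receptor-rich libraries left out 9 were above and 17 below, so the direction rested on that library. Insig1 had a log2 difference of 0.57 (SE 0.29, unadjusted p of 0.0639 in edgeR), with 39.2, 102 and 109 CPM in WT and 88.6, 132 and 160.1 CPM in KO. Mvk, mevalonate kinase, was the only member without overlap at ZT7 (KO lower, as in 3.83% of all genes), with 22.3 to 30.1 CPM in WT and 15.3 to 22.2 CPM in KO.

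At ZT13, 0 members were called (0% of all genes) and 0 had an unadjusted p under 0.05 (0.609% of all genes), and at ZT19 the numbers were 0 (0% of all genes) and 0 (2.36% of all genes), all by edgeR. DESeq2 and limma-trend gave 0 in each case as well. KO was below WT in 19 of 26 at ZT13 (53.9% of all genes), with a median of -0.11. At ZT19 KO was above WT in 23 of 26 (44.7% of all genes), with a median of 0.08, including all 11 squalene and sterol genes and all 4 SREBP control genes. Those 11 had a median difference of 0.10. With the 5 receptor-rich libraries left out, 17 were below at ZT13 and 19 above at ZT19. With library size scaling 3 were below at ZT13 and 19 above at ZT19. With single libraries left out, 10 to 21 were below at ZT13 and 17 to 23 above at ZT19. Without replicate 3 of WT at ZT13, 16 were above and 10 below at ZT13, with a median of 0.04, so the direction there rested on that library. The genotypes overlapped in every member at both time points, while KO was higher or lower without overlap in 2.04% and 1.67% of all genes at ZT13 and in 2.20% and 2.97% at ZT19. Intervals lay within 2-fold for 22 members at ZT1, 19 at ZT7, 25 at ZT13 and 25 at ZT19.

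Many of the members varied together between mice of the same group. After subtracting each group's mean log2 CPM, Pearson's r over the 24 libraries had a median of 0.32 over the 325 pairs of members, against -0.02 for pairs of a member with any other gene tested. The closest pairs were Hmgcs1 with Stard4 (r = 0.92), Msmo1 with Nsdhl (0.91), Sqle with Srebf2 (0.91) and Mvk with Scap (0.89). The farthest was Pmvk with Sc5d (-0.75). Other pairs also ran in opposite directions, such as Hsd17b7 with Scap (-0.69), Tm7sf2 with Abca1 (-0.61) and Sc5d with Scap (-0.60). Sqle had the highest median r with the other members (0.60), followed by Insig1 and Srebf2 (both 0.57) and Lss (0.56), whereas Abca1 (0.02), Npc1 (0.14) and Scap (0.14) were near 0 and became -0.16, -0.27 and -0.06 with the 5 receptor-rich libraries left out. Pmvk had a median of -0.39, which was 0.03 with the 5 receptor-rich libraries left out. With them left out the median over the pairs was 0.35, and for Srebf2 it was 0.36 and for Insig1 0.44. These values are a description, and the other genes tested were not matched to the members in level. All pairs share the libraries, their depth, their scaling and their mix of tissues.

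**Figure D4:**
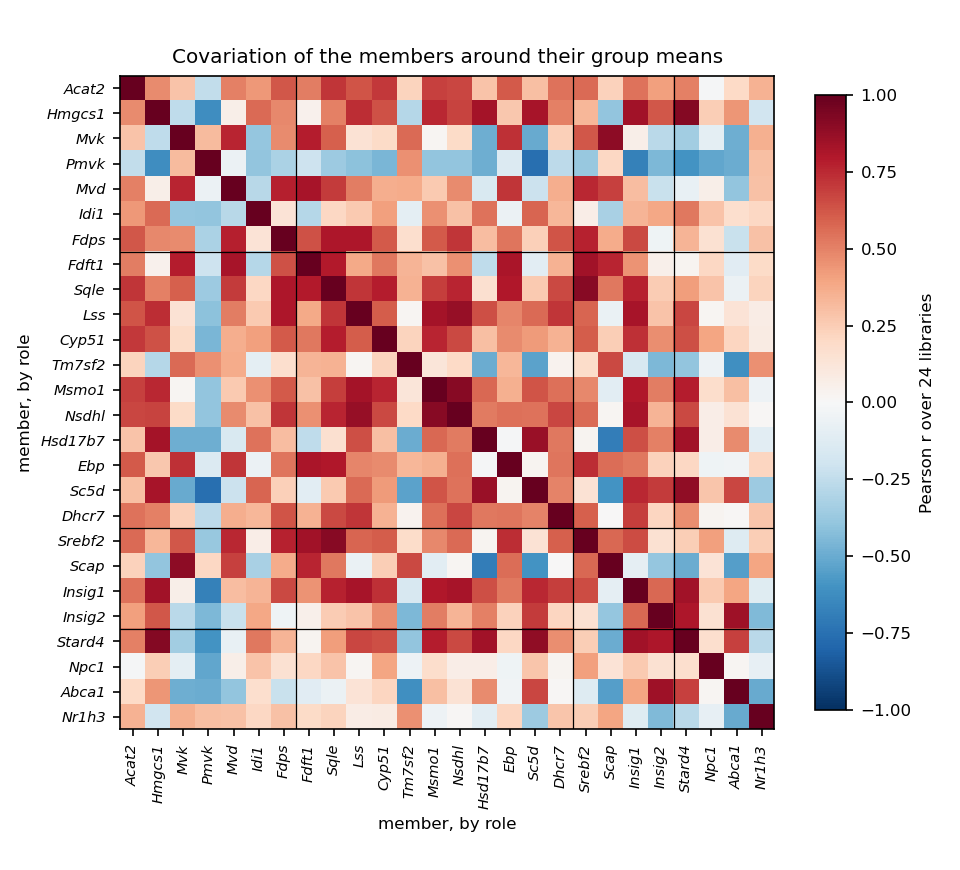
Pearson's r between the members over 24 libraries, from deviations of log2 CPM from the group means, with colour from -1 to 1 and members ordered by role. The row of Pmvk is mostly negative (median -0.39), the median of the 325 pairs is 0.32, and Hmgcs1 with Stard4 has the highest value (0.92).

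Besides the members, 41 other genes of cholesterol handling were listed, among them lipoprotein receptors, apolipoproteins, sterol esterases and side-chain hydroxylases, and 40 had enough counts. None of these 40 were called by edgeR in any of the 9 tests. Those with an unadjusted p under 0.05 in edgeR are given with the share of all genes in brackets. They numbered 0 for time in WT (2.47%) and 1, or 2.5%, for time in KO (2.06%). Time over both genotypes had 2, or 5% (3.11%), and genotype by time 0 (2.06%). The averaged genotype difference had 1, or 2.5% (6.34%). There were 4, or 10%, at ZT1 (9.99%), 2, or 5%, at ZT7 (4.32%), 0 at ZT13 (0.609%) and 0 at ZT19 (2.36%). Apod, which encodes a lipid-binding apolipoprotein of the lipocalin family, was the only gene of this list with an unadjusted p under 0.01 (time over both genotypes, unadjusted p of 0.00295 and adjusted p of 0.698 in edgeR). Its means over both genotypes were 109 ± 23.8, 81.3 ± 17.1, 111 ± 21.7 and 131 ± 12.9 CPM at ZT1, ZT7, ZT13 and ZT19 (SD, n = 6). As for Npc1, the lowest mean was at ZT7.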

How the data were processed

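Total RNA was depleted of ribosomal RNA and sequenced from stranded libraries. Reads were mapped by the authors to mm10 using Bowtie2 and assigned to genes using HTSeq (2.3.4 and 0.9.1 in the submitters' processing notes), and the deposited values are raw counts per gene. The authors' later filters for photoreceptor and choroid genes are not applied in them. Of 53700 gene identifiers, 52147 matched GENCODE release 21 and 1553 did not, and 11 further columns with values in 30 rows were not used.

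Genes were kept by filterByExpr with a minimum count of 10, and tested with edgeR 4.0.16 quasi-likelihood F-tests after TMM scaling in R 4.3.3, called at a Benjamini-Hochberg adjusted p under 0.05 over all genes. Time was tested within each genotype, and over both together, and KO minus WT was tested in a fit of all 24 libraries. Levels are CPM, with a prior count of 2 for log2 CPM. DESeq2 1.42.0, limma-trend (limma 3.58.1), other scalings and filters, a replicate block and omission of each library were tried. The tests were checked on simulated counts. Values in every library were given for members with an unadjusted p under 0.05 and for the most abundant member of each role, and genes outside the members were named at an unadjusted p under 0.01. The members and lists were chosen with earlier results of these data known.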

Additional observations from a re-analysis of the deposited data

How the results depend on the processing

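No member passed the adjusted threshold in any of the 9 tests under any setting tried, which gives 275 alternative counts of 0, including DESeq2, limma-trend, a linear model on unlogged CPM, other scalings, no filter on low counts and each library left out. The number at an unadjusted p under 0.05 ranged from 0 to 2 for time in WT, 0 to 3 in KO and 0 to 7 over both genotypes. It was 0 to 1 for genotype by time, 0 to 2 for the averaged genotype difference and 0 at ZT13 and ZT19. At ZT1 it was 0 to 3 and at ZT7 0 to 5. With the replicate block 0 members were called in every test, against 46 of all genes for time in KO. Many settings called 0 of all genes too, as every setting did for genotype by time, so a 0 there says little about the members. Other settings called more of all genes. Without the filter on low counts 789 were called for time in WT. Without replicate 2 of WT at ZT13, 321 were called for the averaged difference. The replicate numbers belong to different mice, and the labels do not say what else libraries of a number share. The main fits left the numbers out, and only the replicate block used them. Deviations of same-numbered pairs correlated more often, with r over 0.1 in 45 of 84 (median r 0.17, -0.42 to 0.69). Pairs with different numbers were over 0.1 in 54 of 168, with a median r of -0.05. What lies behind this difference was not tested. The 5 receptor-rich libraries are all replicate 1. The log2 ratio of the highest to the lowest time mean of Hmgcs1 in WT, 0.63 as reported, was 0.44 with library size scaling. That ratio for Abca1 in WT, taken between the same time points, was 0.23 and ran from -0.0042 to 0.42 as each library was left out, with the lowest value without replicate 2 of WT at ZT19. The causes were not tested. At single time points the 95% interval of the KO minus WT difference reached beyond 1.5-fold for 24 members at ZT1, 19 at ZT7, 20 at ZT13 and 19 at ZT19, which limits what 3 libraries a group can show.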

Other observations

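Some members departed in single libraries. Pmvk, phosphomevalonate kinase, had 16.0 CPM in the WT library of replicate 1 at ZT7 and 1.49 to 6.10 CPM in the other libraries, although 23 members were lowest of the 3 in that library. Nr1h3, the liver X receptor alpha, had 9.53 CPM in the WT library of replicate 1 at ZT19 and 4.76 and 5.26 CPM in the other 2 of its group. In KO at ZT7, Hsd17b7 had 64.5, 38.6 and 28.5 CPM, with the first of these the highest of all 24 libraries. Replicate 1 of KO at ZT7 was the highest library for 6 members and the lowest for 3. All of these are libraries rich in receptor counts.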
